A study of Mus musculus with 30 samples.

Results

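The genes described here are 38 genes of meningeal fibroblasts and the extracellular matrix, out of 55401 Ensembl gene IDs in the deposited count tables. They were given as a list of names and matched by Ensembl ID, and some had been picked because they were higher 1 month after refeeding. They cover 8 roles, namely collagens, small leucine-rich proteoglycans, other matrix proteins, the insulin-like growth factor (IGF) system, solute carriers, retinoid genes, transcription factors, and a mixed group of surface proteins and enzymes. The study measured total RNA of the hypothalamus of wild-type (WT) B6 mice by bulk RNA-seq after ribosomal RNA depletion, in 30 libraries of 9 groups. The fasting table held mice that were fed, fasted for 24 h, fasted for 72 h, or fasted for 72 h with cold treatment at 18 °C (3 libraries each). The refeeding table held mice refed for 1 h (3 libraries), 12 h (3 libraries) or 1 week (4 libraries), all after a 72 h fast, with no fed or fasted libraries among them. The 1-month table held 4 libraries of mice refed for 1 month after a 72 h fast and 4 libraries of their fed controls. The sources used here give neither age nor sex, and do not say whether each library was a separate mouse, so each p-value measures the spread between libraries only.

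Meningeal fibroblasts form the connective tissue of the pia, arachnoid and dura that wrap the brain, and they follow the larger vessels into it for a short way. They secrete fibrillar collagens and the proteoglycans that bind them, contribute to the basement membrane at the brain surface, and are a source of retinoic acid and IGF-binding proteins. Cells of the arachnoid barrier carry E-cadherin and organic ion transporters that clear solutes from the cerebrospinal fluid. Several of the 38 genes are known from other brain cells as well: Slc22a8 and Alpl from brain endothelium, Anpep from pericytes, and Bgn and Mgp from vessel walls.

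Promoter sequences are shown for 5 of the 8 members called most often, in at least 3 of the 8 tested comparisons below, since the results return to these genes. They are from the RefSeq promoter table (GRCm38.p6), and the other 3 are Col1a1, Lum and Dcn. Each runs 5′ to 3′ on the gene's strand from 250 bases before the transcription start to 50 bases after it. Capitals mark any match, on either strand, to the TATA box letters TATAAA, the CCAAT box letters CCAAT, the GC box letters GGGCGG, the forkhead letters TGTTTAC or the T-box letters AGGTGTGA. The forkhead and T-box letters were searched because Foxc1, Foxd1, Tbx15 and Tbx18 are members. The stretches lie at chr1:45311288-45311587 on the plus strand (Col3a1), chr6:4505368-4505667 on the plus strand (Col1a2), chrX:73483351-73483650 on the plus strand (Bgn), chr13:13437352-13437651 on the plus strand (Nid1) and chr9:58158505-58158804 on the minus strand (Islr).
Col3a1: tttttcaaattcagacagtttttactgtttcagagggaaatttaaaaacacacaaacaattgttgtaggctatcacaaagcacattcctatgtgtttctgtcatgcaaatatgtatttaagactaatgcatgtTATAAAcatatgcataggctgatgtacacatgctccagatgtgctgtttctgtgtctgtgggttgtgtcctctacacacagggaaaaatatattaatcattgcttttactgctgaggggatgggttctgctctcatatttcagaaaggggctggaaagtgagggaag
Col1a2: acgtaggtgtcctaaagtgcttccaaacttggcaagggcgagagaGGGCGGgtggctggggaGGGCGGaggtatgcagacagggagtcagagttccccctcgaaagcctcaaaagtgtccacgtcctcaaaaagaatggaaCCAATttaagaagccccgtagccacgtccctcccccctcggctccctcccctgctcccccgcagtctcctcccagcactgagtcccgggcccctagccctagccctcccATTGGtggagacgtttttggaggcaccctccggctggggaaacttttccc
Bgn: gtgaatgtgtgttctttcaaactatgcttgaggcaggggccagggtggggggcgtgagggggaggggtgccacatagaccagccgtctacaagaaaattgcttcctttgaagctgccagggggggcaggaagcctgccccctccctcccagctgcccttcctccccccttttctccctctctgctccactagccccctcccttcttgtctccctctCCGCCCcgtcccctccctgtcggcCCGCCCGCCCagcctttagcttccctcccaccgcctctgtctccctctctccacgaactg
Nid1: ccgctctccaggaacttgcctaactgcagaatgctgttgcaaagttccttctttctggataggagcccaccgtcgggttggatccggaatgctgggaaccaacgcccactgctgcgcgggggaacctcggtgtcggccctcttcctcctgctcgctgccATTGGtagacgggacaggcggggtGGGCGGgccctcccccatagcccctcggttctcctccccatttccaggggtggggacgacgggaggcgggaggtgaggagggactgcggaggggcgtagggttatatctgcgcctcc
Islr: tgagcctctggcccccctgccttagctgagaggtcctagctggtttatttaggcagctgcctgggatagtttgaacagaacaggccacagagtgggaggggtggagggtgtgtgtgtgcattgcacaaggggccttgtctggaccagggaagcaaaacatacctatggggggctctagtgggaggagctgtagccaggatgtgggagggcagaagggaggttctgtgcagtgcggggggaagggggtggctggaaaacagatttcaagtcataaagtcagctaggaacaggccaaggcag

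The 5 promoters differed in base composition: 37.7% of the bases were G or C in the Col3a1 stretch, against 57.0% in Islr, 61.0% in Col1a2, 63.7% in Bgn and 64.7% in Nid1. The Col3a1 stretch held a TATA box match 117 bases before the start. The Col1a2 stretch held 2 GC box matches and 2 CCAAT box matches, and the Bgn stretch held 3 GC box matches on the reverse strand, 2 of which overlap. The Islr stretch held none of the 5 letter strings. Of the 38 members, 25 had an entry, with 34 promoters between them. TATA box letters were in 5 of the 34, against 13.6% of all 32851 RefSeq promoters, CCAAT letters in 14 (37.4% of all) and GC box letters in 14 (35.7% of all). Forkhead letters were in 1 of the 34, that of Col6a1 (3.65% of all), and T-box letters in 0 (1.28% of all). These counts are descriptions of letters and not of binding.

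Levels are given as CPM, a gene's counts per 1000000 counts of its library, on the scale of the trimmed mean of M-values (TMM), a factor that corrects each library for its composition. A gene is called where its adjusted p, from edgeR's quasi-likelihood test with Benjamini-Hochberg adjustment over all genes tested in that comparison, was below 0.05, and "rose" and "fell" are used of called genes only. Fold changes are log2 values ± SE, and changes are read within a table. Libraries held 26115967 to 64269426 counted reads in the fasting and refeeding tables and 9347942 to 13813956 in the 1-month table. Within the refeeding table, the 1-week libraries held 46909406 to 64269426, the 1 h libraries 28478043 to 33077615 and the 12 h libraries 26115967 to 34051433. Of the 38 genes, 36 passed the filter on low counts in the fasting and refeeding tables. The exceptions, Ogn and Igf2, were listed at 0 in each of those 22 libraries and had counts in the 1-month table. Both lie wholly within the span of other annotated genes. Ogn lies inside Cenpp on the opposite strand. Igf2 overlaps Gm49394 and Mir483 on the same strand and Igf2os on the opposite strand. Whether the tables were counted in the same way is not stated, the cause of the zeros was not tested, and no level is given for these genes outside the 1-month table. As a check of the tissue, 6 neuronal markers summed to 1702 to 3986 CPM in the 30 libraries. The members summed to 134 to 577 CPM outside the 1-month refed libraries, and 15 other markers of meningeal fibroblasts, Ptgds, Gjb2 and Dpp4 among them, summed to 614 to 1541 CPM there.

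**Figure D1:**
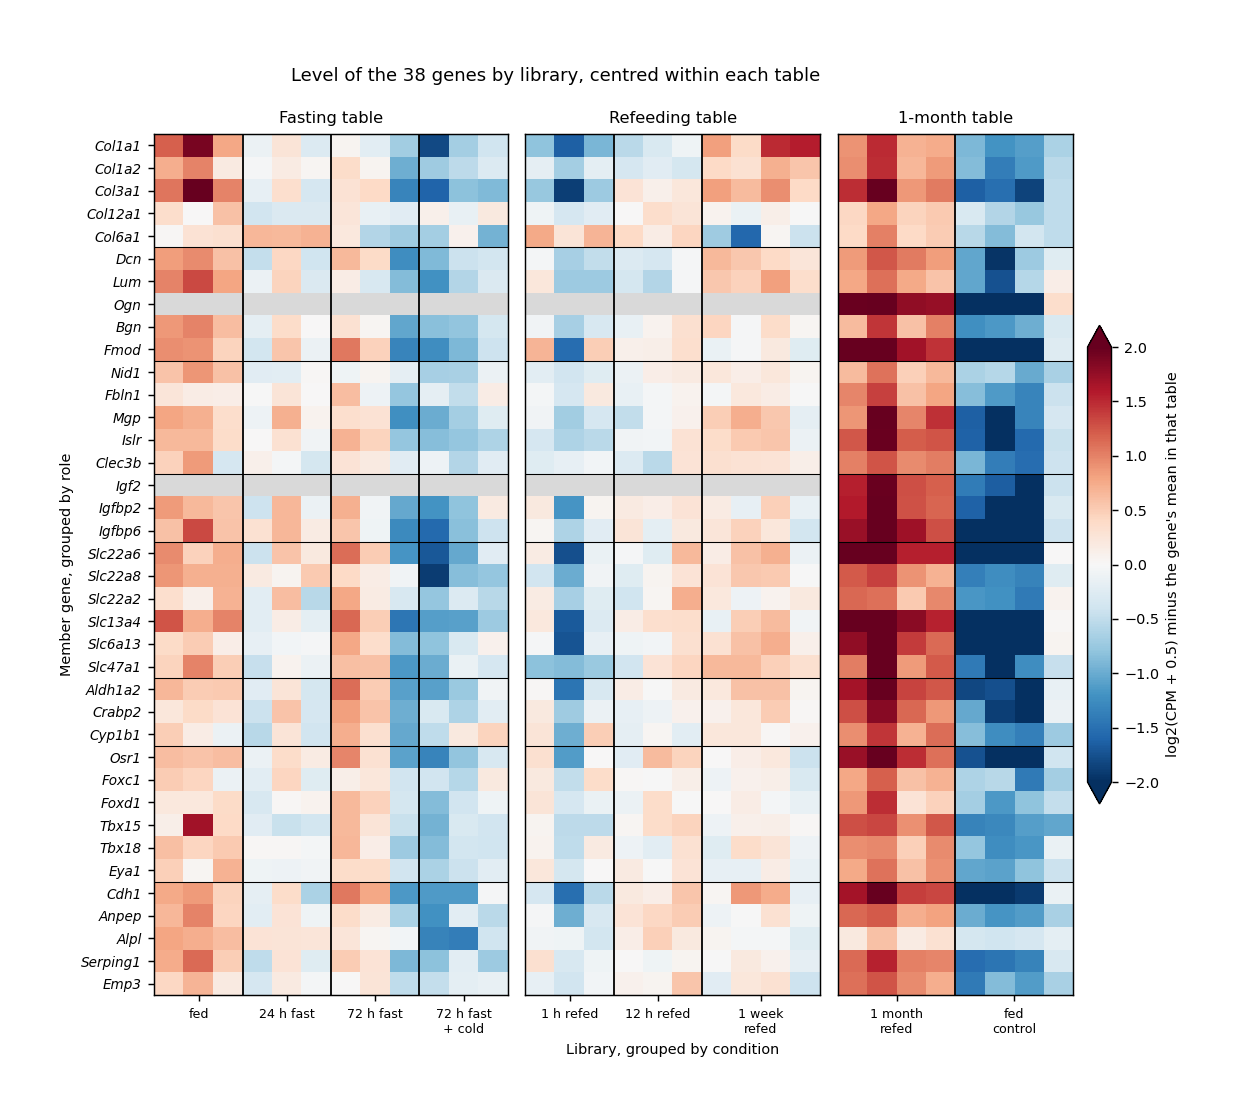
Level of each of the 38 genes (rows, grouped by role) in each of the 30 libraries (columns, grouped by condition), as log2(CPM + 0.5) minus the gene's mean in that table; grey rows are Ogn and Igf2, listed at 0 in the fasting and refeeding tables. Library 3 of the 72 h fast and library 2 of the 1 h refed group are pale to blue over nearly the whole column, and the 1-month refed libraries are red in every row.

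Some libraries stood apart over nearly all members at once. Library 3 of the 72 h fast was the lowest of its group for all 36 members tested, and its members summed to 140 CPM, against 358 CPM in library 1 and 277 CPM in library 2. Library 2 of the 1 h refed group was the lowest of its group for 34 of 36 members, with a sum of 183 CPM against 310 CPM and 281 CPM in libraries 1 and 3. In the 1-month table, library 2 of the refed group was the highest of its group for 37 of 38 members and library 5 of the controls for 34 of 38. Fed library 2 also held liver and muscle transcripts: liver markers summed to 812 CPM and muscle markers to 1054 CPM there, against 17.2 and 1.14 CPM in fed library 1. Liver markers summed to 288 CPM in fed library 3 and to 40.4 to 152 CPM in the 24 h libraries. Ttr is in both the liver and the choroid plexus list. Choroid plexus markers summed to 67.5, 155 and 270 CPM in fed libraries 1, 2 and 3. The liver sum of fed library 3 therefore need not come from liver, and the share of Ttr in it is not given here. The counts below are therefore given with and without the libraries that move them.

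The first question is whether fasting changed these genes. After 24 h, 0 of 36 members were called by edgeR, against 0.0343% of all genes, yet 35 of the 36 were lower on average than in fed libraries. The median log2 fold change of the members was -0.63, against 0.0043 over all genes. Of the 36, 12 had an unadjusted p below 0.05, against 10.4% of all genes, and in 25 the libraries of the groups did not overlap, against 13.2% of all genes. DESeq2, fitted without the filter on low counts, called 4 of the 36 as lower: Col1a1, Nid1, Col3a1 and Col12a1. Over all genes DESeq2 called 103 higher and 105 lower. Col6a1 was the exception in direction, at 19.1, 19.02 and 19.7 CPM after 24 h and 12.1, 14.7 and 14.9 CPM in fed libraries. In bulk tissue, fewer cells of a type and less RNA per cell cannot be told apart.

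After 72 h, 5 of 36 members fell and 0 rose, against 15.1% of all genes called, 7.28% called higher and 7.78% called lower. The 5 were 2 fibrillar collagen genes (Col1a1 and Col3a1), 2 proteoglycan genes (Lum and Bgn) and Nid1. The median log2 fold change over the 36 was -0.53. The groups did not overlap in 10 of the 36, against 41.1% of all genes. This count rested on single libraries: it was 0 without fed library 2 and 0 without 72 h library 3, 1 without 72 h library 2, 2 without fed library 1, 4 without 72 h library 1 and 6 without fed library 3. None of the 5 calls was kept in all 6 of these fits. DESeq2 called the 5 and also Alpl and Col1a2, both lower. Over all genes it called 2107 higher and 2445 lower. Between 72 h and 24 h of fasting, edgeR called 0 of 36 members, against 1.63% of all genes, with 1 at an unadjusted p below 0.05, against 23.5% of all genes. DESeq2 called 1 member, Col6a1, as lower, and 708 genes higher and 1012 lower over all genes.

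With cold treatment added to the 72 h fast, 20 of 36 members fell relative to fed libraries and 0 rose, against 17.9% of all genes called, 8.78% called higher and 9.16% called lower. All 36 were lower on average, with log2 fold changes of -2.86 (Col3a1) to -0.11 (Cyp1b1) and a median of -1.34, against -0.03 over all genes. An unadjusted p below 0.05 was seen in 30 of the 36, against 36.2% of all genes. The count of 20 calls was 7 without cold-treated library 1 and 11 without cold-treated library 2. It was 13 without fed library 1, 10 without fed library 2 and 18 to 21 without either of the other libraries. Calls over all genes were 1791 higher and 1870 lower with all libraries. Without cold-treated library 1 they were 536 and 396, and without cold-treated library 2 they were 1049 and 987. Without fed library 1 they were 664 and 932, and without fed library 2 they were 533 and 599. The members that stayed called whichever library of these groups was left out were Col1a1, Col3a1, Bgn, Lum, Nid1, Slc22a8 and Alpl. DESeq2 called all 20 and 6 more, with adjusted p-values of 0.0207 to 0.0392: Cdh1, Slc47a1, Aldh1a2, Slc22a2, Slc22a6 and Emp3. Over all genes it called 2581 higher and 2226 lower. This group differs from the fed group in both the fast and the cold.

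Set against the 72 h fast alone, the cold-treated group showed 0 of 36 members called by edgeR, and 0% of all genes were called. Lower average levels were seen in 35 of the 36, with a median log2 fold change of -0.72, and 15 had an unadjusted p below 0.05, against 6.35% of all genes. The groups did not overlap in 2 of the 36, against 15.5% of all genes. Without 72 h library 3 edgeR called 2 members, and 0 genes higher and 2 lower over all genes. Without cold-treated library 3 it called 1 member, and 0 genes higher and 5 lower over all genes. DESeq2 called 2 members on all libraries, Alpl and Slc22a8, and 27 genes higher and 26 lower over all genes.

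**Figure D2:**
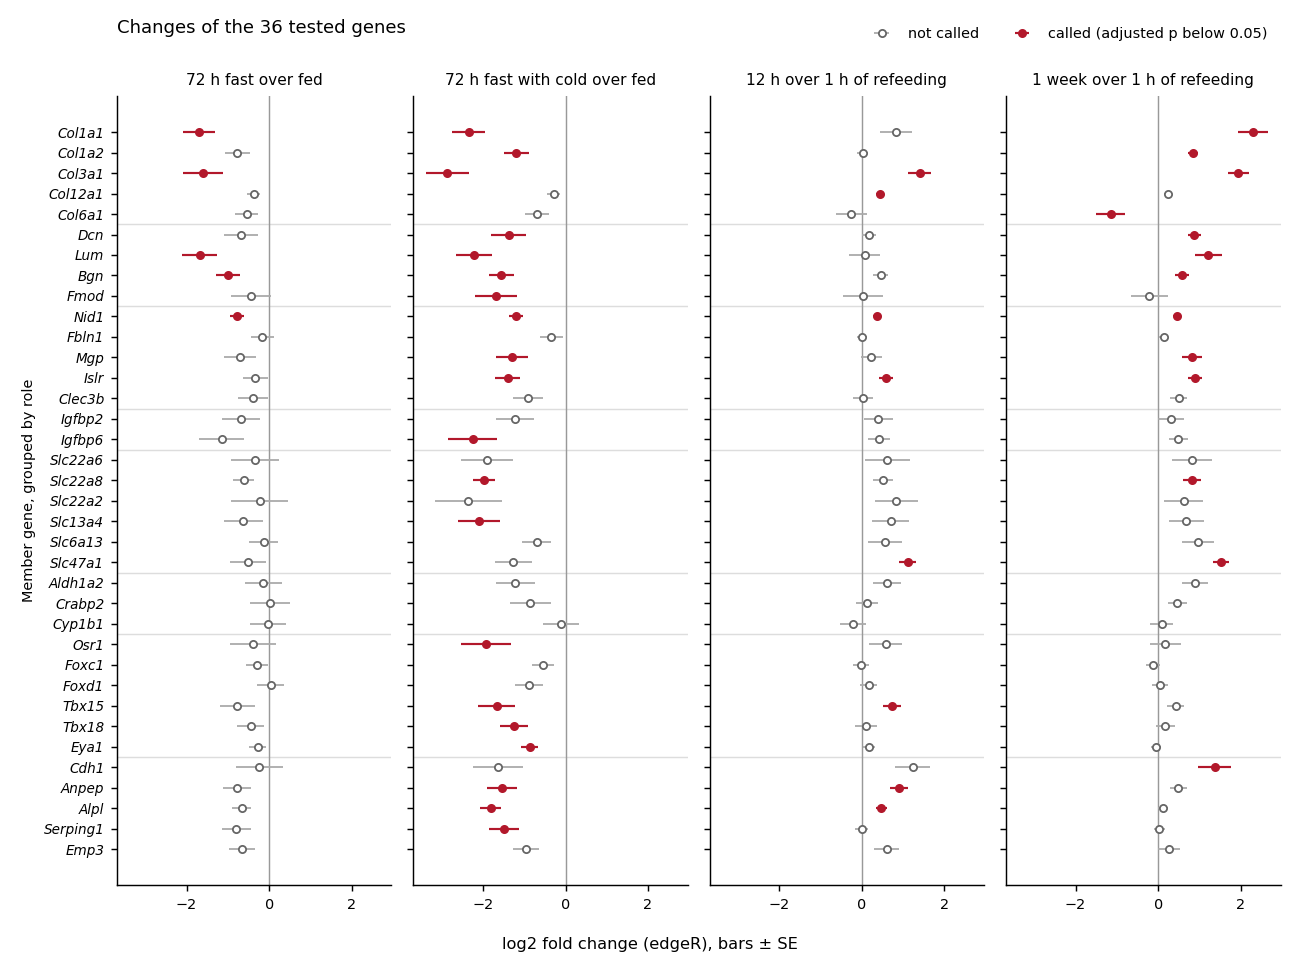
Log2 fold change (points) ± SE (bars) from edgeR for the 36 tested genes, grouped by role, in 4 comparisons; filled red points passed the test. After a 72 h fast with cold all 36 points lie left of 0 and 20 are filled, and at 1 week of refeeding 12 filled points lie right of 0 and 1, Col6a1, lies left of it.

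Among the collagens, those that build fibrils changed most. Col3a1 (chromosome 1, 45311538 to 45349706) encodes the chain of type III collagen and had the largest drop. It stood at 0.856, 1.81 and 1.71 CPM in the cold-treated 72 h fasted libraries, against 8.12, 16.2 and 7.60 CPM in fed libraries (log2 fold change -2.86 ± 0.52, adjusted p = 0.00682). Every cold-treated library lay below every fed library. After 72 h without cold it fell as well, to 4.52, 4.89 and 1.14 CPM (log2 fold change -1.61 ± 0.48, adjusted p = 0.0447), again without overlap with the fed libraries. Col1a1 (chromosome 11, 94936224 to 94953042), a chain of type I collagen, was at 1.83, 4.596 and 5.68 CPM with cold, against 18.3, 29.95 and 13.4 CPM in fed libraries (log2 fold change -2.35 ± 0.40, adjusted p = 0.00524). At 72 h without cold it was at 7.99, 6.56 and 4.55 CPM (log2 fold change -1.69 ± 0.38, adjusted p = 0.0199). All 6 libraries of these fasted groups were below the lowest fed library. Col1a2, the partner chain of type I collagen and the collagen with the highest mean CPM, reached 10.6, 12.1 and 14.5 CPM with cold, against 29.6, 35.6 and 20.2 CPM in fed libraries (log2 fold change -1.19 ± 0.30, adjusted p = 0.0219). It was not called after 72 h alone, when it was at 23.1, 18.3 and 8.70 CPM. Col12a1, a fibril-associated collagen, and Col6a1, a chain of the microfibrillar type VI collagen, were not called in any comparison with fed libraries, at -0.29 ± 0.16 and -0.69 ± 0.28 on the log2 scale with cold.

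The small leucine-rich proteoglycans coat collagen fibrils and govern their spacing, and all 4 that could be tested fell with cold. Lum, which encodes lumican, was at 0.367, 0.824 and 1.14 CPM, against 3.45, 4.51 and 2.93 CPM in fed libraries (log2 fold change -2.22 ± 0.44, adjusted p = 0.0086). Bgn, which encodes biglycan, was at 5.10, 5.26 and 7.30 CPM, against 17.7, 19.3 and 14.9 CPM in fed libraries (log2 fold change -1.55 ± 0.30, adjusted p = 0.00818). For both the cold-treated libraries all lay below the fed ones. Both also fell after 72 h without cold, Lum to 1.71, 1.09 and 0.591 CPM (log2 fold change -1.69 ± 0.43, adjusted p = 0.0259) and Bgn to 11.9, 9.75 and 4.36 CPM (log2 fold change -0.999 ± 0.29, adjusted p = 0.0408). Dcn, which encodes decorin and had the highest mean CPM of this group, was at 7.67, 10.7 and 11.2 CPM with cold, against 26.3, 28.7 and 22.1 CPM in fed libraries (log2 fold change -1.38 ± 0.41, adjusted p = 0.0418). After 72 h alone its libraries ranged widely, at 23.04, 19.3 and 5.89 CPM, and it was not called. Fmod, which encodes fibromodulin, had the same spread, at 20.1, 13.1 and 3.45 CPM after 72 h, but fell to 3.67, 4.82 and 6.88 CPM with cold, against 18.4, 17.96 and 12.98 CPM in fed libraries (log2 fold change -1.68 ± 0.51, adjusted p = 0.0437). The cold calls of Dcn and Fmod were each lost on leaving out 5 of the 6 libraries, 1 at a time, and those of Lum and Bgn were kept.

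Of the other matrix genes, 3 of 5 fell with cold. Nid1 (chromosome 13, 13437551 to 13512269) encodes nidogen 1, which links laminin to type IV collagen in basement membranes. It was at 5.62, 5.64 and 8.41 CPM with cold, against 13.9, 17.4 and 13.9 CPM in fed libraries (log2 fold change -1.20 ± 0.17, adjusted p = 0.00294). It also fell after 72 h alone, to 8.61, 9.54 and 8.05 CPM (log2 fold change -0.79 ± 0.17, adjusted p = 0.0167), where all 3 libraries were below the fed ones. Islr, which encodes an immunoglobulin-type protein of stromal cells, was at 3.76, 3.99 and 4.48 CPM with cold, against 11.5, 11.5 and 9.34 CPM in fed libraries (log2 fold change -1.40 ± 0.30, adjusted p = 0.0122). Mgp, the matrix protein that restrains calcification, was at 5.04, 6.37 and 8.77 CPM with cold, against 18.4, 17.5 and 13.6 CPM in fed libraries (log2 fold change -1.29 ± 0.39, adjusted p = 0.0409). The groups did not overlap for either gene. The cold call of Mgp was lost on leaving out 5 of the 6 libraries, 1 at a time, and that of Islr on leaving out 1. Fbln1 (fibulin 1), the matrix gene with the highest mean CPM here, and Clec3b (tetranectin) were not called, with log2 fold changes of -0.34 ± 0.28 and -0.92 ± 0.37.

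The solute carriers of the arachnoid barrier and brain vessels gave 2 calls of 6 with cold. Slc22a8, an organic anion transporter, was at 2.26, 5.23 and 5.50 CPM, against 18.4, 16.4 and 16.3 CPM in fed libraries (log2 fold change -1.98 ± 0.27, adjusted p = 0.00229). Its cold-treated libraries were all below the lowest 72 h library (13.1, 10.9 and 9.36 CPM), although edgeR did not call that difference (-1.36 ± 0.26 on the log2 scale). Slc13a4, a sulfate transporter, was at 3.27, 3.30 and 4.39 CPM, against 18.8, 12.8 and 15.5 CPM in fed libraries (log2 fold change -2.10 ± 0.51, adjusted p = 0.0207). Slc22a6, the anion transporter gene that neighbours Slc22a8 on chromosome 19 at a distance of 6203 bases, was not called, at 0.550, 1.17 and 2.40 CPM with cold and 6.07, 4.202 and 5.15 CPM in fed libraries. The cation transporter Slc22a2, the cation exporter Slc47a1 and the GABA transporter Slc6a13 were also below fed libraries on average without a call by edgeR, at -2.35 ± 0.82, -1.26 ± 0.45 and -0.70 ± 0.36 on the log2 scale.

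Among the surface proteins and enzymes 3 of 5 fell with cold. Alpl (chromosome 4, 137741733 to 137796384), the tissue-nonspecific alkaline phosphatase, had the smallest adjusted p of all members together with Slc22a8. It was at 2.44, 2.38 and 5.14 CPM with cold, against 12.4, 11.8 and 10.9 CPM in fed libraries (log2 fold change -1.82 ± 0.24, adjusted p = 0.00229). Libraries after 72 h without cold were in between, at 8.34, 7.20 and 6.66 CPM, with no overlap on either side. Anpep (aminopeptidase N) was at 0.978 to 2.44 CPM with cold and at 4.13 to 6.30 CPM in fed libraries (log2 fold change -1.54 ± 0.35, adjusted p = 0.015). Serping1, the inhibitor of early complement proteases, was at 3.18 to 5.07 CPM with cold and at 8.63 to 13.8 CPM in fed libraries (log2 fold change -1.49 ± 0.36, adjusted p = 0.0187). Cdh1 (E-cadherin) and Emp3 were not called, at -1.64 ± 0.61 and -0.95 ± 0.32.

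The genes of transcription control gave 4 calls of 6 with cold: Eya1, a coactivator and the highest of this group in CPM, Tbx15 and Tbx18, which encode T-box factors, and Osr1, a zinc-finger factor. Eya1 was at 9.26, 10.7 and 12.6 CPM, against 20.5, 15.01 and 23.9 CPM in fed libraries (log2 fold change -0.87 ± 0.21, adjusted p = 0.0179). Tbx15 fell by a larger step (log2 fold change -1.67 ± 0.44, adjusted p = 0.0253), but its fed libraries were at 2.84, 9.39 and 3.56 CPM, so that library 2 stood well above the other two. For Osr1 the cold-treated libraries were at 0.244, 0.571 and 0.992 CPM and the fed ones at 2.35, 2.27 and 2.33 CPM. The call of Osr1 was lost on leaving out 5 of the 6 libraries, 1 at a time. The forkhead genes Foxc1, needed for the meninges to form, and Foxd1 were not called, at -0.55 ± 0.27 and -0.87 ± 0.34. Igfbp6 was the 1 IGF-system gene called, at 0.306, 0.824 and 1.26 CPM with cold, against 3.03, 5.42 and 2.99 CPM in fed libraries (log2 fold change -2.25 ± 0.59, adjusted p = 0.0244), while Igfbp2 was at 4.65, 6.21 and 12.8 CPM and 20.6, 17.96 and 16.8 CPM without a call. Of the 3 retinoid genes edgeR called 0, with 1 at an unadjusted p below 0.05, and DESeq2 called Aldh1a2. On the log2 scale Aldh1a2, which makes retinoic acid, was at -1.21 ± 0.47, Crabp2, which carries it, at -0.85 ± 0.50 and Cyp1b1 at -0.11 ± 0.44.

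Other lists of genes were read beside the members in the same cold-against-fed comparison. Of 14 other markers of meningeal fibroblasts 1 fell (Itih2, -1.62 ± 0.43) and 0 rose, with a median of -0.15, and Angptl2 was listed at 0 in each library of the fasting and refeeding tables. Their summed level was 744.9, 769.9 and 1070 CPM with cold and 941.3, 794.8 and 717.8 CPM in fed libraries, which overlap. The list includes Ptgds, Cldn11, Gjb6 and Pdgfra, and the part of other brain cells in these sums was not tested. Of 21 other collagen and matrix genes 3 rose and 4 fell, the fallen led by Fn1 (-1.28 ± 0.18), the gene of fibronectin, and Efemp1 (-1.18 ± 0.22). Of 15 genes of collagen processing 2 rose and 2 fell, P4ha1 (-0.74 ± 0.09), a prolyl hydroxylase subunit, and Serpinh1 (-1.36 ± 0.32), the collagen chaperone. Of 12 basement membrane genes 1 rose and 4 fell, led by Lama4 (-1.17 ± 0.19) and Hspg2 (-1.47 ± 0.26). Of 12 further IGF-system genes 4 fell (led by Igfbp7 and Igfbp5) and 0 rose, and of 14 further retinoid genes 4 fell (Stra6 among them) and 0 rose.

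Vascular markers moved with the members in this comparison. Of 12 endothelial markers 10 fell, led by Flt1 (-1.01 ± 0.11) and Emcn (-1.23 ± 0.17), and their sum was 231.7, 209.4 and 252.6 CPM with cold, against 385.2, 371.3 and 352 CPM in fed libraries. Of 12 pericyte and smooth muscle markers 6 fell, led by Myh11 (-2.27 ± 0.18) and Acta2 (-2.38 ± 0.26), with sums of 100.2, 103.4 and 134.1 CPM with cold and 256.4, 270.3 and 215.1 CPM in fed libraries. Neither set of sums overlapped between these groups. Markers of microglia and macrophages fell in 5 of 10 (led by Cd163 and Aif1), of choroid plexus in 4 of 11 (Clic6 and Aqp1), of blood in 3 of 4, of liver in 5 of 6, of muscle in 3 of 3 and of striatal projection neurons in 6 of 8 (Penk and Tac1). Of astrocyte, ependymal and oligodendrocyte markers 1 of 7, 1 of 7 and 1 of 6 fell, of neuronal markers 0 of 6 and of pituitary markers 0 of 3 by edgeR, with 1 of each at an unadjusted p below 0.05. In all of these marker lists 0 rose. The part of these cell types in the members' levels was not tested. After 72 h alone the endothelial list gave 8 calls of 12 and the pericyte list 4 of 12, all lower, and after 24 h 1 pericyte gene, Myh11, fell (-1.38 ± 0.17). In that 24 h comparison 11 of 12 endothelial and 11 of 12 pericyte markers were lower on average, 8 and 7 of them at an unadjusted p below 0.05. Endothelial sums were 315.6, 283 and 295.9 CPM after 24 h and 385.2, 371.3 and 352 CPM in fed libraries, and pericyte sums 146.8, 147.3 and 145.4 CPM and 256.4, 270.3 and 215.1 CPM, without overlap in either list.

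**Figure D3:**
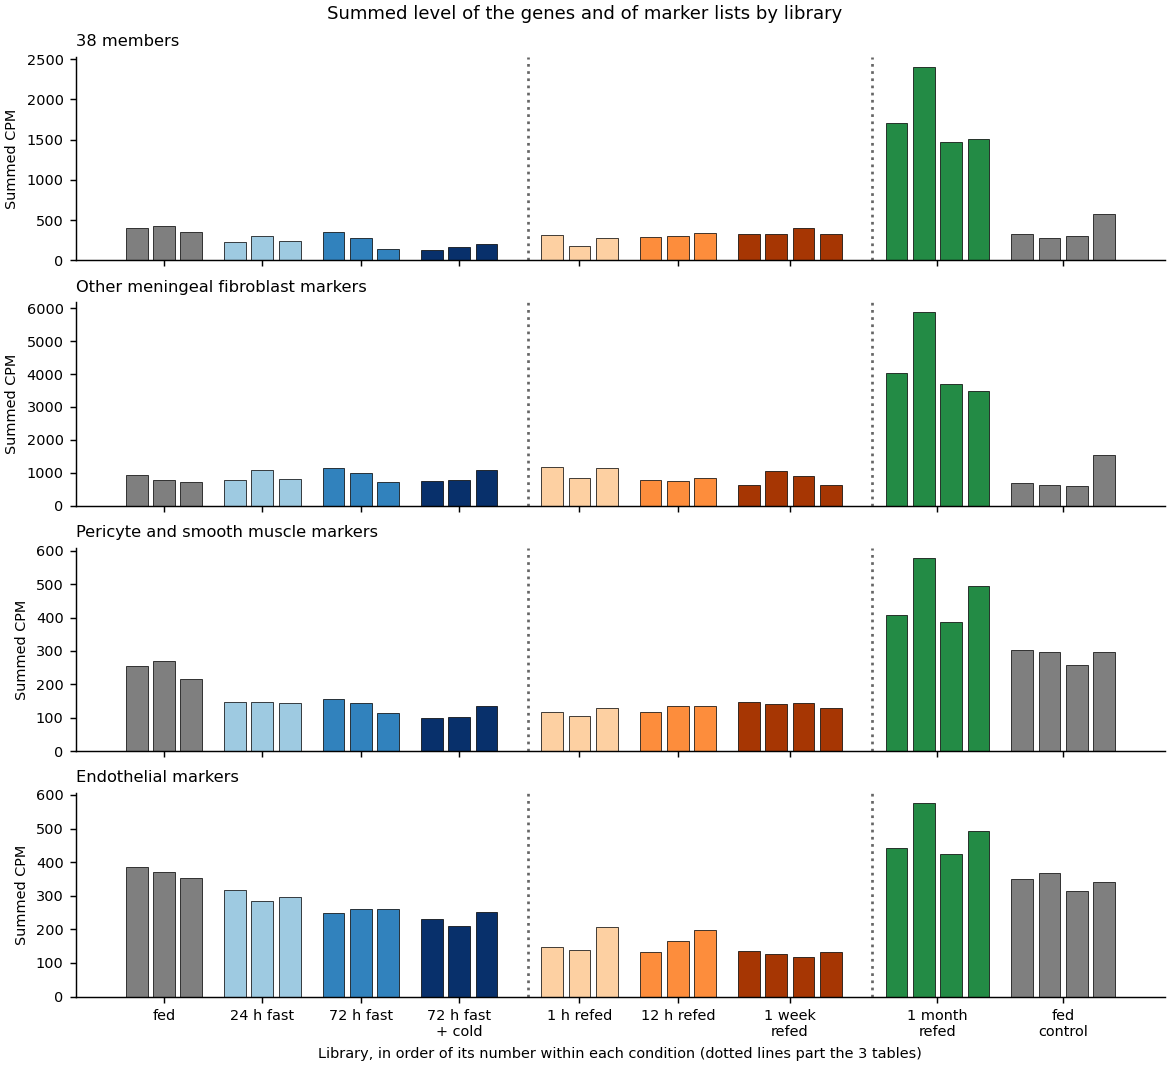
Summed CPM per library (1 bar each) of the 38 genes, of other meningeal fibroblast markers, of pericyte and smooth muscle markers and of endothelial markers, in the order of the library numbers within each condition; dotted lines part the 3 tables, which were normalised separately. With cold the members' sums are 134, 164 and 205 CPM, against 397, 423 and 347 CPM in fed libraries, while the sums of the other meningeal markers overlap. The part of other brain cells in those marker sums was not tested.

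The second question is how these genes moved during refeeding. From 1 h to 12 h of refeeding 8 of 36 members rose and 0 fell, against 14.2% of all genes called, 7.08% called higher and 7.14% called lower. The median log2 fold change was 0.42, and 10 of the 36 did not overlap between groups, against 31.9% of all genes. An unadjusted p below 0.05 was seen in 10 of the 36, against 29.4% of all genes. The count of 8 rises was 2 without 1 h library 2, which was low for 34 members, and 4 without 1 h library 3. It was 2 without either 12 h library 2 or 12 h library 3. Calls over all genes were 1411 higher and 1423 lower with all libraries. They were 684 and 733 without 1 h library 2, and 1012 and 1272 without 1 h library 3. Without 12 h library 2 they were 777 and 855, and without 12 h library 3 they were 708 and 606. The calls of Col3a1 and Slc47a1 were kept whichever library was left out, and the other 6 were each lost without 1 h library 2, again without 12 h library 2 and again without 12 h library 3. From 12 h to 1 week 4 of 36 rose and 0 fell, against 11.6% of all genes called and 6.56% called higher, with a median of 0.10. An unadjusted p below 0.05 was seen in 10 of the 36, against 27.8% of all genes. The count of 4 rises was 1 without 12 h library 2 and 2 without 1-week library 1. The call of Col1a2 was the 1 kept whichever library was left out. Calls over all genes were 1307 higher and 997 lower with all libraries. They were 665 and 457 without 12 h library 2, and 714 and 437 without 1-week library 1. DESeq2 called the 4 members that rose, Mgp as higher and Alpl as lower. Over all genes it called 1669 higher and 1234 lower. Over the whole interval, from 1 h to 1 week, 12 of 36 rose and 1 fell, against 26.9% of all genes called, 13.5% higher and 13.5% lower. Its median was 0.49, 15 of the 36 did not overlap, against 36.9% of all genes, and 18 had an unadjusted p below 0.05, against 38.8% of all genes. The count of 13 was 8 without 1 h library 3 and 10 to 15 without any other library. Calls over all genes were 2689 higher and 2681 lower with all libraries, and 1905 and 2069 without 1 h library 3. The calls kept whichever library was left out were those of Col1a1, Col1a2, Col3a1, Dcn, Islr, Nid1 and Slc47a1. These 3 comparisons share libraries and are not independent, and without fed or fasted libraries in the table they say nothing of whether a gene returned to its fed level. Every 1-week library was also deeper than every 1 h and 12 h library. Time of refeeding and whatever else differed with depth cannot be told apart in the 1-week comparisons.

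The fibrillar collagens rose over the refeeding week. Col3a1 was at 2.77, 1.01 and 2.84 CPM at 1 h, 6.19, 5.45 and 6.02 CPM at 12 h and 9.31, 8.16, 10.03 and 6.81 CPM at 1 week. The groups did not overlap at any step, and the gene was called from 1 h to 12 h (log2 fold change 1.40 ± 0.28, adjusted p = 0.00764) and from 1 h to 1 week (log2 fold change 1.94 ± 0.26, adjusted p = 0.00031). Col1a1 was at 9.30, 5.02 and 8.61 CPM at 1 h, 11.3, 13.4 and 15.7 CPM at 12 h and 29.9, 21.8, 47.9 and 50.3 CPM at 1 week. Its largest spread was at 1 week, and it was called from 12 h to 1 week (log2 fold change 1.47 ± 0.35, adjusted p = 0.0363) and from 1 h to 1 week (log2 fold change 2.29 ± 0.37, adjusted p = 0.00363). Col1a2 was not called over the first 12 h and then rose. It was at 23.5, 16.5 and 23.4 CPM at 1 h, 21.1, 22.8 and 20.7 CPM at 12 h and 35.5, 33.1, 43.9 and 39.5 CPM at 1 week, with a log2 change of 0.03 ± 0.13 up to 12 h. From 12 h to 1 week it had the smallest adjusted p of the members (log2 fold change 0.82 ± 0.12, adjusted p = 0.00175) and no overlap between groups.

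The other collagens had other courses. Col12a1 was at 16.3, 13.7 and 14.8 CPM at 1 h, 17.4, 22.4 and 20.9 CPM at 12 h and 18.3, 15.8, 18.9 and 17.2 CPM at 1 week, and of the 3 refeeding comparisons it was called in that from 1 h to 12 h (log2 fold change 0.44 ± 0.11, adjusted p = 0.014). Col6a1 was the 1 member that fell, and the collagen with the highest mean CPM in this table. It was at 54.4, 38.3 and 51.3 CPM at 1 h, 42.4, 35.3 and 43.4 CPM at 12 h and 19.3, 10.4, 32.9 and 23.5 CPM at 1 week, and all 1-week libraries were below all 1 h libraries (log2 fold change -1.15 ± 0.34, adjusted p = 0.0434). In the fasting table Col6a1 was also the 1 member with a positive average change after 24 h.

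Dcn and Lum, proteoglycan genes 46984 bases apart on chromosome 10, both rose between 12 h and 1 week. Dcn was at 9.55, 5.99 and 6.82 CPM at 1 h, 7.99, 7.67 and 9.65 CPM at 12 h and 15.7, 14.4, 13.1 and 11.6 CPM at 1 week, a rise from 12 h to 1 week (log2 fold change 0.70 ± 0.15, adjusted p = 0.0105) with no overlap. Lum was at 1.56, 0.557 and 0.568 CPM at 1 h, 0.884, 0.672 and 1.24 CPM at 12 h and 2.06, 1.93, 2.59 and 1.74 CPM at 1 week (log2 fold change 1.15 ± 0.32, adjusted p = 0.0329). Its levels are low, near 1 CPM before 1 week. Bgn was called over the whole interval, at 11.9, 8.49, 11.3 and 8.94 CPM at 1 week against 8.21, 5.30 and 6.88 CPM at 1 h (log2 fold change 0.58 ± 0.17, adjusted p = 0.0195), with 1-week library 2 close to the highest 1 h library. Fmod, the proteoglycan with the highest mean CPM here, was not called, and its 1 h libraries were at 23.6, 4.70 and 20.6 CPM, with library 2 far below the other two.

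The matrix gene Nid1 rose early, to 9.88, 11.8 and 12.2 CPM at 12 h against 9.20, 8.12 and 9.0 CPM at 1 h (log2 fold change 0.37 ± 0.11, adjusted p = 0.0321), and stayed at 12.7, 11.8, 12.6 and 11.1 CPM at 1 week. Islr behaved alike, at 8.95, 9.08 and 11.6 CPM at 12 h against 7.42, 6.03 and 6.37 CPM at 1 h (log2 fold change 0.58 ± 0.17, adjusted p = 0.0402), and at 12.4, 13.8, 14.1 and 8.69 CPM at 1 week. In both genes every later library was above every 1 h library. The 12 h call was lost on leaving out any 1 of the 6 libraries for Islr and 5 of the 6 for Nid1, and that of Nid1 also in a fit of only the 2 groups. Mgp was called from 1 h to 1 week (log2 fold change 0.82 ± 0.24, adjusted p = 0.0263), and Fbln1 and Clec3b were not called in any refeeding comparison, with log2 changes from 1 h to 1 week of 0.13 ± 0.12 and 0.50 ± 0.20.

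The transporter gene with the smallest adjusted p was Slc47a1, which encodes a proton-coupled exporter of organic cations. It was at 2.07, 1.99 and 2.21 CPM at 1 h, 2.96, 4.94 and 5.58 CPM at 12 h and 6.59, 6.58, 5.82 and 5.14 CPM at 1 week, so that the 1 h libraries were close together and below all the others. It had the smallest adjusted p of the members from 1 h to 12 h (log2 fold change 1.11 ± 0.21, adjusted p = 0.00318) and from 1 h to 1 week (log2 fold change 1.53 ± 0.19, adjusted p = 8.11e-05). Slc22a8 was called over the whole interval, at 10.9, 13.2, 13.04 and 8.89 CPM at 1 week against 6.72, 4.25 and 8.46 CPM at 1 h (log2 fold change 0.82 ± 0.22, adjusted p = 0.0188). The other carriers, Slc13a4 (the highest in CPM), Slc22a6, Slc22a2 and Slc6a13, were not called, with log2 changes from 1 h to 1 week of 0.62 to 0.96.

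Of the surface proteins, Anpep and Alpl rose from 1 h to 12 h, Anpep to 4.34, 4.84 and 5.19 CPM at 12 h against 3.44, 1.53 and 2.72 CPM at 1 h (log2 fold change 0.90 ± 0.23, adjusted p = 0.0175) and Alpl to 9.07, 11.7 and 9.53 CPM against 7.83, 7.80 and 6.28 CPM (log2 fold change 0.47 ± 0.13, adjusted p = 0.0272). Neither group pair overlapped, and neither gene was called from 1 h to 1 week. Cdh1 was called from 1 h to 1 week (log2 fold change 1.37 ± 0.39, adjusted p = 0.0284), at 2.91, 5.53, 5.03 and 2.45 CPM at 1 week against 2.13, 0.662 and 1.76 CPM at 1 h. Tbx15 was the 1 transcription gene called, from 1 h to 12 h (log2 fold change 0.73 ± 0.22, adjusted p = 0.0353). That call was lost on leaving out 4 of the 6 libraries, 1 at a time, and in a fit of only the 2 groups. The IGF-system genes Igfbp2 and Igfbp6, the retinoid genes Aldh1a2, Crabp2 and Cyp1b1, and the genes Eya1, Tbx18, Osr1, Foxc1, Foxd1, Serping1 and Emp3 were not called by edgeR in any refeeding comparison. DESeq2 called Aldh1a2 as higher from 1 h to 1 week (log2 fold change 0.90, adjusted p = 0.0445). Over all genes it called 2789 higher and 2851 lower in that comparison.

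**Figure D4:**
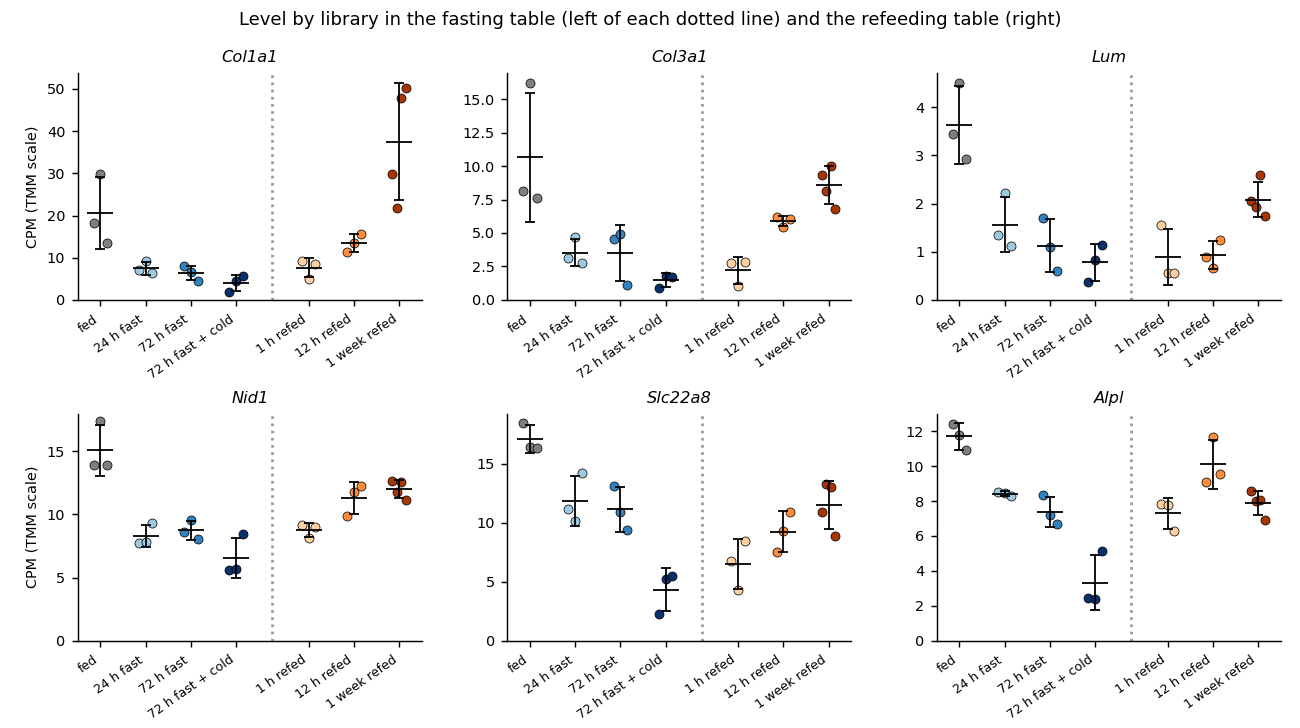
CPM of 6 members in each library (points) with the group mean and SD (bars), in the fasting table left of the dotted line and the refeeding table right of it; levels are compared within a table only. Col3a1 fell to 0.856 to 1.81 CPM with cold, against 7.60 to 16.2 CPM in fed libraries, and was at 6.81 to 10.03 CPM at 1 week of refeeding, above every library at 1 h.

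The fasting and refeeding tables share no library, so their calls can be set side by side. All 5 members that fell after 72 h of fasting rose from 1 h to 1 week of refeeding, which is 100% of the 5 and 41.7% of the 12 that rose. Over all genes tested in both tables, 359 of the 1518 that fell rose in that comparison, which is 23.6% of those and 13.5% of the 2665 that rose. Of the 5 fasting calls, 0 were kept whichever library was left out, against 7 of the 20 calls with cold. The 1-week libraries were also deeper than the 1 h libraries, as given above. Of the 20 members that fell with cold, 10 rose from 1 h to 1 week, which is 50% of the 20 and 83.3% of the 12 that rose. Over all genes the same held for 449, which is 25.0% of the 1798 that fell with cold and 16.8% of the 2665 that rose. Of those 20 members, 6 rose from 1 h to 12 h and 4 from 12 h to 1 week. Of the 1798 genes, 225 (12.5%) and 174 (9.68%) did so in these comparisons. Cold treatment is named for the cold-treated 72 h group only, so the counts with cold do not describe recovery from cold. Counting over the 8 tested comparisons, Col1a1, Col3a1, Lum and Nid1 were called in 4, and Bgn, Col1a2, Dcn and Islr in 3. At the other end 12 members were not called by edgeR in any of the 8, though DESeq2 called 4 of them, as given above: Aldh1a2, Clec3b, Crabp2, Cyp1b1, Emp3, Fbln1, Foxc1, Foxd1, Igfbp2, Slc22a2, Slc22a6 and Slc6a13.

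Beside the members, the other lists were mixed during refeeding. From 1 h to 1 week, 2 of 14 other meningeal markers rose and 3 fell, led by Itih5 (-0.53 ± 0.08) and Lama1 (0.49 ± 0.10). Of 21 other collagen and matrix genes 4 rose and 2 fell (Fbln5, -0.95 ± 0.13, and Efemp1, 0.87 ± 0.15), and of 15 processing genes 3 rose and 2 fell, Serpinh1 rising by 0.64 ± 0.09. Basement membrane genes gave 0 rises and 1 fall of 12, further IGF-system genes 1 and 3 of 12, and further retinoid genes 0 and 3 of 14. Vascular markers did not move as one: 3 pericyte markers rose and 1 fell of 12, and 0 endothelial markers rose and 2 fell of 12. Blood markers rose in 4 of 4, and their sums were 68.4 to 123 CPM at 1 h, 76.4 to 120 CPM at 12 h and 401 to 1257 CPM at 1 week. Microglial markers rose in 5 of 9 and astrocyte markers in 4 of 7. The part of these cells in the members' changes was not tested.

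The third setting is 1 month after refeeding. Some members were chosen because they were higher here, so the values, with their fitted folds and SE, are a description and no test of the members is given. All 38 genes had a higher mean in refed than in control libraries and in all 38 the groups did not overlap, against 15.7% of all genes. The log2 fold changes ran from 0.66 (Alpl) to 3.73 (Igfbp6) with a median of 2.30, against a median of 0.0018 over all genes. Since this contrast was used in the choice, nothing is read from these shares. Summed over the 38 genes, the level was 1712, 2405, 1471 and 1504 CPM in refed libraries 1, 2, 4 and 5 and 331.2, 276.1, 297.8 and 577.3 CPM in control libraries 2, 3, 4 and 5. Without control library 5, the highest control for 34 members, the median was 2.62.

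**Figure D5:**
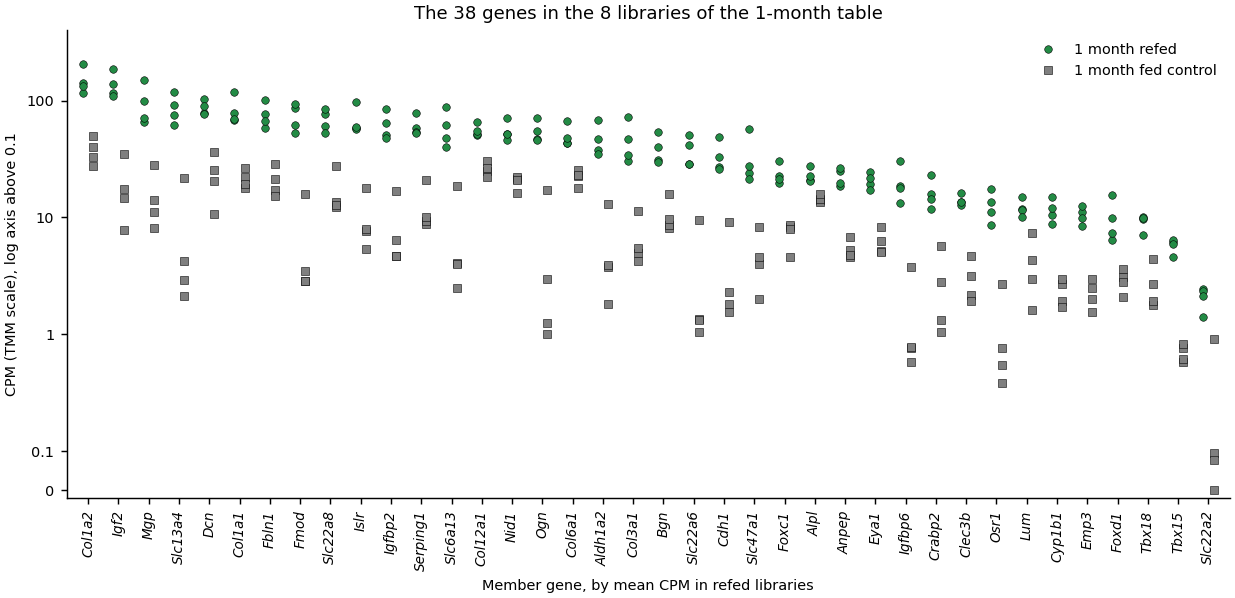
CPM of each of the 38 genes in the 4 refed libraries (circles) and 4 fed control libraries (squares) of the 1-month table, on a log axis above 0.1, ordered by the refed mean. Every circle lies above every square of its gene, and for genes such as Slc22a6 and Fmod 1 square, control library 5, lies well above the other 3.

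The largest fold changes were in the IGF-system, proteoglycan, carrier and transcription genes. Igfbp6, which binds IGF-II, was at 18.4, 30.7, 17.97 and 13.4 CPM in refed libraries and 0.768, 0.774, 0.575 and 3.79 CPM in control libraries (log2 fold change 3.73 ± 0.55). Igfbp2 was at 63.8, 85.2, 50.9 and 47.5 CPM in refed libraries and 6.43, 4.64, 4.70 and 16.8 CPM in control libraries (2.92 ± 0.46). Igf2, the gene of the growth factor itself, was the IGF-system gene with the highest CPM, at 139.6, 186.6, 115.6 and 108.7 CPM and 17.5, 14.6, 7.77 and 34.98 CPM. In all 3 genes control library 5 was the highest control. Fmod was at 86.5, 94.4, 61.4 and 52.5 CPM in refed libraries and 2.88, 3.48, 2.88 and 15.8 CPM in control libraries (3.53 ± 0.59). Ogn, which encodes mimecan (osteoglycin), was at 54.6, 70.4, 47.1 and 46.4 CPM and 1.25, 1.01, 2.97 and 17.3 CPM (3.25 ± 0.78). For Ogn the controls spread over more than a factor of 10, with library 5 far above the others, and its span overlaps that of Cenpp. Dcn, the proteoglycan highest in CPM, showed a smaller difference, at 77.7, 102.8, 89.2 and 77.3 CPM in refed libraries and 20.6, 10.7, 25.7 and 36.2 CPM in control libraries (1.90 ± 0.34).

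The 6 solute carriers had fitted folds of 4.17 (Slc22a8) to 11.1 (Slc22a6). Slc22a6 was at 41.5, 51.03, 28.6 and 28.6 CPM in refed libraries and 1.34, 1.32, 1.05 and 9.47 CPM in control libraries (3.47 ± 0.67). Slc13a4 was at 92.5, 117.5, 75.2 and 62.3 CPM and 4.22, 2.94, 2.11 and 21.6 CPM (3.47 ± 0.69). In both, control library 5 was several times the other controls and still below every refed library. Of the transcription genes, Osr1 was at 13.5, 17.6, 11.2 and 8.55 CPM in refed libraries and 0.768, 0.542, 0.384 and 2.72 CPM in control libraries (3.50 ± 0.45), and Tbx15 at 6.12, 6.38, 4.61 and 5.91 CPM and 0.576, 0.619, 0.767 and 0.823 CPM (3.03 ± 0.25). The 4 control libraries lay close together for Tbx15. Foxc1, highest in CPM of these genes, was at 19.9 to 30.6 CPM in refed libraries and 4.602 to 8.67 CPM in control libraries (1.68 ± 0.18).

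The collagen, matrix, retinoid and surface genes spanned a wider range. Col3a1 was at 46.6, 72.9, 30.7 and 34.5 CPM in refed libraries and 4.99, 5.49, 4.22 and 11.4 CPM in control libraries (2.81 ± 0.43), and Col1a2 at 140.2, 204.3, 116.2 and 133.2 CPM and 40.1, 27.6, 33.2 and 50.05 CPM (1.98 ± 0.24). Islr was at 58.1, 97.2, 57.1 and 58.9 CPM and 7.59, 5.42, 7.96 and 17.7 CPM (2.81 ± 0.40), and Mgp at 66.2, 148.9, 71.1 and 99.4 CPM and 11.2, 8.05, 14 and 28.2 CPM (2.65 ± 0.47). Refed library 2 was the highest for each of these 4. Aldh1a2 was at 46.9, 67.9, 37.6 and 34.8 CPM and 3.74, 3.95, 1.82 and 13.01 CPM (3.03 ± 0.55), Crabp2 at 11.7 to 23 CPM and 1.05 to 5.68 CPM (2.58 ± 0.46), Cdh1 at 33.1, 48.9, 27.01 and 26.1 CPM and 1.82, 1.55, 2.30 and 9.14 CPM (3.17 ± 0.57), and Serping1 at 58.6, 77.8, 53.9 and 52.5 CPM and 8.83, 9.29, 10.2 and 21.1 CPM (2.29 ± 0.30). The smallest differences were in Alpl (0.66 ± 0.12), Col12a1 (1.09 ± 0.11) and Col6a1 (1.19 ± 0.15). Per kilobase of exon, which allows genes to be compared, Mgp was the highest member at 81.2 CPM per kb in refed libraries and 12.9 CPM per kb in control libraries, followed by Igfbp2 at 33.5 and 4.41 CPM per kb, and Slc22a2 was the lowest at 0.839 and 0.109 CPM per kb.

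Other meningeal markers stood higher at 1 month as well. The lists below were also chosen with earlier results of these data known. Their counts are a description, and nothing is read from the shares. Of 15, 13 were called higher in refed libraries and 0 lower, against 10.1% of all genes called and 6.37% called higher, led by Itih5 (0.71 ± 0.09) and Pcolce (2.15 ± 0.22), with sums of 4023, 5878, 3698 and 3483 CPM in refed libraries and 698.1, 620.5, 613.7 and 1541 CPM in control libraries. Refed library 2 and control library 5 were the highest of their groups here too, as they were for the members. Called higher were also 13 of 23 other collagen and matrix genes (Thbs2 and Efemp1 first), 8 of 15 processing genes, 5 of 12 basement membrane genes (Lama4 and Lama2), 5 of 11 further IGF-system genes (Igfbp4 and Igfbp7) and 4 of 13 further retinoid genes (Stra6 and Rbp4), with 0 lower in each list. Vascular and immune markers moved too: 7 of 12 endothelial markers were higher and 0 lower, 3 of 11 pericyte markers higher and 1 lower, and 4 of 10 microglial and macrophage markers higher, led by Mrc1 and F13a1. The median log2 fold change was 0.97 for the other meningeal markers, 0.37 for endothelial markers, 0.48 for pericyte markers and -0.18 for neuronal markers, of which edgeR called 0 of 6 (3 at an unadjusted p below 0.05). The part of the amount of meninges on the dissected tissue, of which no direct measure is given here, was not tested.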

How the data were processed

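Total RNA of mouse hypothalamus was extracted with Qiagen RNeasy columns, and ribosomal RNA was depleted before directional library preparation with the NEBNext Ultra II kit, per the labels' protocols. Reads were aligned to mm10 with HISAT2 and assigned to genes with featureCounts, and the authors compared groups with edgeR, per the submitters' processing notes. The sources used here give no versions and do not say whether counting used strand. The authors deposited raw gene counts, not normalised, in 3 tables of 52286 (fasting), 55401 (refeeding) and 22371 (1-month) genes, and 2 columns that match no sample were not used. Gene positions came from GENCODE M21 (GRCm38).

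Counts were fitted per table, all groups together, with edgeR 4.0.16 in R 4.3.3 (filterByExpr, TMM factors, robust quasi-likelihood fit). The filter left 20408, 19932 and 14867 genes. P-values were adjusted by Benjamini-Hochberg over all of them, at a threshold of 0.05, and the SE is the log2 fold change divided by the square root of F. The script was tested on simulated counts. Libraries held 9347942 to 64269426 counts, and the 3 or 4 libraries a group limit the precision.

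The members and all gene lists were chosen with earlier results of these data known. Named with library values were, in each comparison, up to 6 called members by adjusted p in each direction and the member of each role with the highest mean CPM, at 1 month the 2 largest fold changes of each role, and of other lists up to 2 called genes with the smallest adjusted p. Of the other lists, 1 gene that this rule names is not reported here. Members outside this rule were named after their values were seen. Alternatives were DESeq2 1.42.0, its size-factor (RLE) scaling in edgeR, no filter, only the groups compared, the library number as a block, and leaving out each library.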

Additional observations from a re-analysis of the deposited data

Results flagged for a closer look

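In groups of 4 libraries, 1 library lay far from the other 3 in 16 gene-by-group cases. Of these, 12 were 1-month control library 5, which stood above the other 3 controls each time. Chance alone flags about 1 in 20 independent groups. The 16 cases share libraries and are not independent, so they cannot be set against that rate. Among the carriers, Slc22a6 was at 9.47 CPM there against 1.05 to 1.34 CPM in the others, Slc13a4 at 21.6 against 2.11 to 4.22 CPM, Slc6a13 at 18.5 against 2.50 to 4.10 CPM, Slc22a8 at 27.4 against 12.3 to 13.5 CPM and Slc22a2 at 0.905 against 0 to 0.0960 CPM. Among the proteoglycan and IGF-system genes, Ogn was at 17.3 against 1.01 to 2.97 CPM, Fmod at 15.8 against 2.88 to 3.48 CPM, Igfbp2 at 16.8 against 4.64 to 6.43 CPM and Igfbp6 at 3.79 against 0.575 to 0.774 CPM. Osr1 was at 2.72 against 0.384 to 0.768 CPM, Cdh1 at 9.14 against 1.55 to 2.30 CPM and Serping1 at 21.1 against 8.83 to 10.2 CPM. The other meningeal markers summed to 1541 CPM in that library, against 614 to 698 CPM in the other controls.

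In the 1-month refed group, library 2 was high for Col6a1 (67.5 CPM, against 43.7 to 47.4 CPM in the others) and Islr (97.2 against 57.1 to 58.9 CPM), and library 4 was low for Tbx18 (7.06 against 9.79 to 10.1 CPM). In the 1-week refed group, library 3 was high for Eya1 (13.3 against 10.7 to 10.8 CPM).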

How the results depend on the processing

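No log2 fold change of a called member, or of a member named by rule at 1 month, changed sign under any alternative run. Counts of calls have no sign and could not reverse. The counts of called members were 0, 5, 0, 0 and 20 in the fasting table (24 h over fed, 72 h over fed, 72 h over 24 h, cold over 72 h, cold over fed) and 8, 4 and 13 in the refeeding table (12 h over 1 h, 1 week over 12 h, 1 week over 1 h). With DESeq2 the counts that moved by more than 1.5 times were 4 for 24 h over fed, 1 for 72 h over 24 h and 2 for cold over 72 h. Over all genes DESeq2 called 103 higher and 105 lower, 708 and 1012, and 27 and 26 in these comparisons. The edgeR calls over all genes were 5 and 2, 116 and 217, and 0 and 0. Without the filter on low counts, 72 h over fed gave 3 members, and 1083 genes higher and 1403 lower over all genes. Leaving out 1 library at a time gave 0 to 0, 0 to 6, 0 to 0, 0 to 2 and 7 to 21 in the order of the fasting table and 2 to 7, 1 to 5 and 8 to 15 in that of the refeeding table. Calls over all genes also changed with the library left out, as given above. The 1-month median log2 fold change was 2.15 to 2.62 on leaving out a library. Of the 50 calls, DESeq2 and RLE scaling kept 50 each, no filter lost 13, fits of only the groups compared lost 8, and the block lost 3. The fits of only the groups compared lost Col3a1 and Bgn (72 h over fed), Tbx15 (cold over fed), Nid1 and Tbx15 (12 h over 1 h), Col1a1 (1 week over 12 h) and Col6a1 and Cdh1 (1 week over 1 h). No filter lost Col3a1 and Bgn (72 h over fed), Col1a2, Dcn, Fmod, Mgp, Slc13a4 and Osr1 (cold over fed), Col1a1 (1 week over 12 h) and Col6a1, Mgp, Slc22a8 and Cdh1 (1 week over 1 h). Why these counts moved was not tested beyond the number of libraries and genes each setting uses. Precision is limited by 3 or 4 libraries a group, and no setting places the 3 tables on 1 scale.

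Same-numbered libraries gave no clear sign of pairing. Across the 10 pairs of groups, their correlations ran from -0.23 to 0.33, and in 0 pairs did every number exceed 0.1. Weak correlations cannot show that the samples were unpaired. Library numbers here and above are those of the sample titles, and for the 1-week group they differ from the numbers in the library names. With the number as a replicate block the counts were 0, 5, 0, 0 and 18 in the fasting table and 7, 7 and 14 in the refeeding table, and the calls lost were Fmod and Osr1 (cold over fed) and Tbx15 (12 h over 1 h).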
